A study of Rattus norvegicus with 52 samples.

Results

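Collagen genes were followed through every RNA library of a rat mammary gland study. They were chosen by symbol alone: 28 of the 17356 gene rows of the count tables have a symbol that begins with Col, a number, the letter a and a number. *Col4a3bp* also matches but encodes a ceramide transfer protein, so 27 collagen genes were left, of which 10 are fibrillar, 6 belong to basement membranes and 11 are other collagens. No row of the count tables carries the symbol Col4a2, Col4a5, Col4a6, Col6a1 or Col6a3, so these chains could not be followed. *Col1a2*, which encodes the partner chain of *Col1a1* in type I collagen, was near 0 counts in every library and did not pass the filter on low counts in any comparison, so type I collagen was read from *Col1a1* alone.

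The study compared mammary cells sorted from female ACI rats that were *Cdkn1b*+/+ or *Cdkn1b*-/-, selected from heterozygous crosses and aged 4, 6 or 9 weeks. The paper describes the 2 younger groups by ranges of age that end at 4 and 6 weeks. Animals within 1 of these groups, also those of different genotype, may therefore differ in age. *Cdkn1b* encodes the cell cycle inhibitor p27, and the *Cdkn1b*-/- animals carry 1 of 2 short CRISPR-Cas9 deletions in the first coding exon (DEL-32 and DEL-65), made in Sprague-Dawley zygotes and backcrossed to ACI. The labels do not say which deletion a library carries. Cells were sorted from an early and a later backcross generation, and the library titles do not give the generation. At 9 weeks, 2 libraries of each genotype came from basal/myoepithelial cells (Cd24+ Cd29HIGH), PNA+ and Cd49b+ luminal progenitors and mature luminal cells. PNA is peanut agglutinin, a lectin. At 4 weeks there were 3 *Cdkn1b*+/+ and 2 *Cdkn1b*-/- basal libraries and 3 luminal libraries of each genotype, and at 6 weeks 3 *Cdkn1b*+/+ and 2 *Cdkn1b*-/- basal libraries and 2 luminal libraries of each genotype. In a further experiment, basal and luminal cells came from ACI rats, a strain susceptible to estrogen-induced mammary tumors, and from resistant BN rats, with or without E2 (estradiol), with 2 libraries of each ACI group and 1 of each BN group. The labels give these ACI and BN rats no *Cdkn1b* genotype and no age, and the title of each BN library carries a pair of animal codes. Titles of their luminal libraries also name CD49b and PNA.

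Collagens are triple helices of polypeptide chains. Fibrillar collagens (types I, II, III, V, XI and XXVII) are secreted as procollagens, trimmed by proteases and crosslinked into the fibers of the stroma. Type IV collagen instead forms the sheet of the basement membrane on which epithelium rests, with type VII as its anchoring fibrils, types XV and XVIII as collagens of the basement membrane zone, and the transmembrane collagen XVII as part of the hemidesmosomes that fix basal cells to it. In the mammary gland, basal/myoepithelial cells lie directly on the basement membrane and luminal cells line the duct, while fibroblasts outside the epithelium are the usual main source of types I and III.

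For the collagens that separated basal from luminal cells most consistently (*Col4a1*, *Col17a1* and *Col18a1*), and for 2 collagens of the basement membrane that share a start region (*Col4a3* and *Col4a4*), the 120 bases before the annotated start are given, 5′ to 3′ on the gene's own strand, from RefSeq (build GRCr8, which is not the build of the counts). Capitals mark matches, on either strand, to the TATA box (TATAAA), the box spelled CCAAT, the GC box (GGGCGG) or a core of the motifs of SOX factors (ACAAAG). The stretches are chr16:84885477-84885596, plus strand; chr1:256518858-256518977, minus strand; chr20:11473525-11473644, plus strand; chr9:91323870-91323989, plus strand; and chr9:91323578-91323697, minus strand.
Col4a1: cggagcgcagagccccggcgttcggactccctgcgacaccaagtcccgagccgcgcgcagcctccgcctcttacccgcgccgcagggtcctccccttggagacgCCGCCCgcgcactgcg
Col17a1: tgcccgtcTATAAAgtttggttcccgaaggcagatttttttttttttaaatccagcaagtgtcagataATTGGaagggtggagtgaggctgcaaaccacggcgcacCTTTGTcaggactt
Col18a1: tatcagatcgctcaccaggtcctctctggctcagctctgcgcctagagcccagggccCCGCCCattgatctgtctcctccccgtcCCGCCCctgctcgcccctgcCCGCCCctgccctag
Col4a3: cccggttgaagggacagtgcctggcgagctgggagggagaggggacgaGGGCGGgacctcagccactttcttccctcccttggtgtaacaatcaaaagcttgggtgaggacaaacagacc
Col4a4: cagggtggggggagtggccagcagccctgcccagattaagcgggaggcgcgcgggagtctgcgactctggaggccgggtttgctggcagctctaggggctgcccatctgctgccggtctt
Over the 250 bases before the start, 22 of the 27 collagens had an entry and were searched beside the promoters of 27457 genes. The GC box was found in 12 of 22 collagens (54.5%) and in 32.4% of all promoters, CCAAT in 6 (27.3%) and 34.3%, TATAAA in 3 (13.6%) and 13.1%, and ACAAAG in 1, *Col17a1*, and 16% of all. *Col4a3* and *Col4a4* are transcribed head to head, with 413 bases between their starts on chromosome 9, so the printed stretches belong to 1 interval. A match is only a run of letters and says nothing of binding.

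Libraries held 7985619 to 33859550 counts on genes, with the shallowest at 6 weeks, and levels below are normalized CPM (counts scaled to library size, which was corrected by the trimmed mean of M-values, TMM), compared between libraries and never between genes, since they are not per length. The short deletion leaves most of the *Cdkn1b* transcript to be counted, so its level checks the labels only in part. At 9 weeks it was 1.78 to 4.61 in *Cdkn1b*-/- and 6.13 to 15.7 in *Cdkn1b*+/+ libraries, without overlap. At 4 and 6 weeks the genotypes overlapped, and the 6-week luminal library labelled *Cdkn1b*-/- 2 had 36.7 against 10.7 in library 1 and 43.9 and 31.7 in the *Cdkn1b*+/+ luminal libraries, so its label was not met by this check. Likewise the 6-week basal library labelled *Cdkn1b*+/+ 3 had 3.48, below 10.2 and 11.3 in the *Cdkn1b*-/- basal libraries. The sort met its labels at 9 weeks, where 10 of 10 basal markers were higher and 10 of 10 luminal markers lower in basal cells. Summed over the 10 basal markers, libraries labelled basal held 19805 to 39991 normalized CPM at 9 weeks, 15936 to 23735 at 4 weeks, 7416 to 15926 at 6 weeks and 2981 to 19100.0 in the E2 experiment, the lowest being ACI E2 library 1, while luminal libraries stayed at or below 3389 at 9 weeks.

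Collagen genes were mostly expressed in the basal fraction. At 9 weeks, 22 of 26 collagens tested were higher in basal than in luminal cells at an adjusted p under 0.05 and none was lower, against 24.1% of all 12809 genes tested that were higher and 44.7% that were called in either direction. By class, 7 of 9 fibrillar, 5 of 6 basement membrane and 10 of 11 other collagens were higher. The median log2 fold change over the 26 was 2.65, and that over all genes was 0.02. At 4 weeks, 24 of 25 were higher (8 of 9 fibrillar, all 6 basement membrane and all 10 other collagens tested) against 20.3% of all genes higher and 35.1% called, and the median was 5.22 against -0.01 over all genes. At 6 weeks, 10 of 25 were higher (2, 3 and 5 by class) against 3.49% of all genes higher and 5.65% called. In the E2 experiment, 5 of 26 were higher (1, 2 and 2 by class) against 0.952% higher and 1.66% called. Of these 5, *Col23a1* had 0 counts in every luminal library and passed the filter only through the basal ones. *Col4a1*, *Col17a1* and *Col18a1* were higher in all 4 data sets, 8 collagens in 3, 12 in 2, 1 in 1, and 3 in none. In the E2 experiment, leaving out 1 library at a time kept the calls of *Col4a1*, *Col17a1* and *Col18a1* in 3, 4 and 9 of 12 fits. With the code of the animal, shared by its basal and luminal libraries, as a block, 23, 9 and 4 were called at 4 weeks, 6 weeks and in the E2 experiment, of which 23, 8 and 2 were among those above: *Col8a1* (adjusted p = 0.08) was no longer called at 4 weeks, *Col15a1* (0.084) and *Col6a2* (0.051) at 6 weeks, and *Col17a1* (0.092), *Col23a1* (0.14) and *Col5a3* (0.066) in the E2 experiment, while *Col5a3* (0.015) passed at 6 weeks and *Col2a1* (0.022) and *Col7a1* (0.041) in the E2 experiment. Of the 25 collagens tested in all 4, 22 had a log2 fold change above 0 in each. In such bulk libraries, fewer cells of a type and less RNA per cell cannot be told apart.

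**Figure D1:**
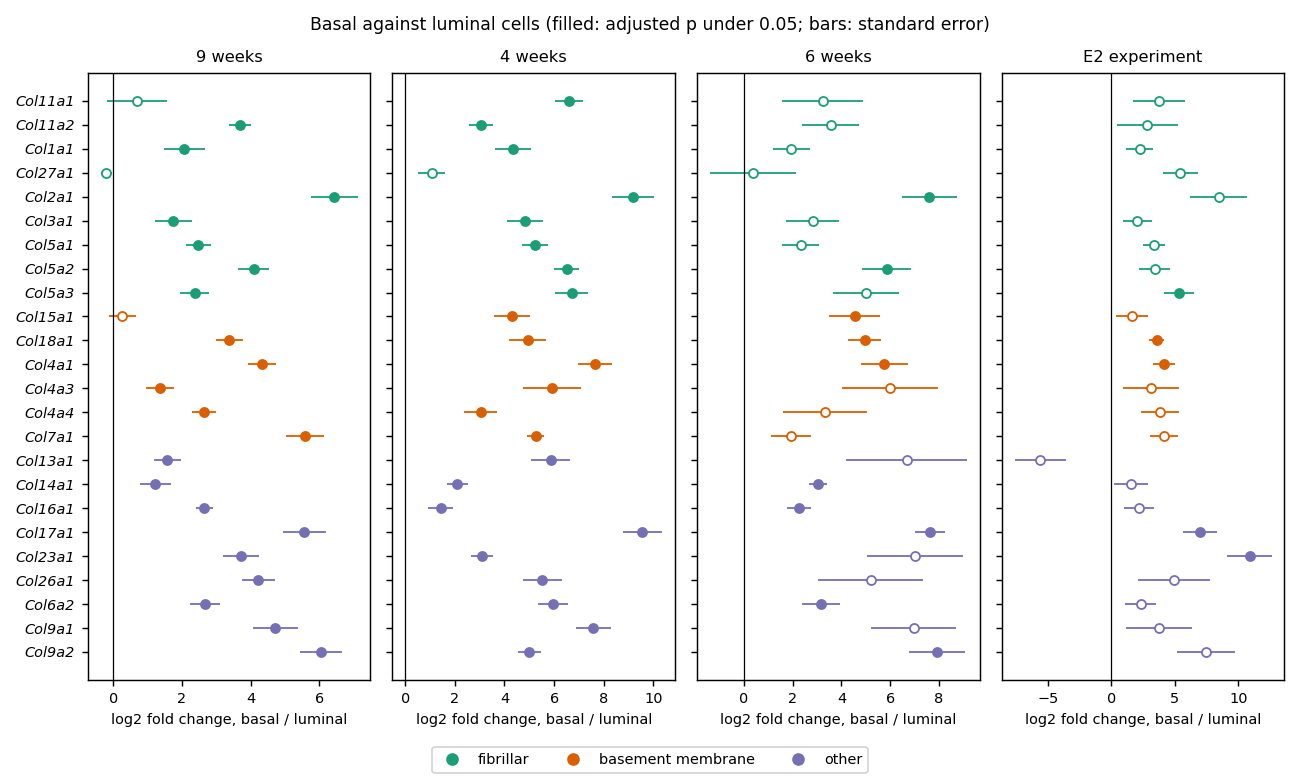
Log2 fold change of collagens, basal over luminal cells, in the 4 data sets (9 weeks, 4 weeks, 6 weeks and the E2 experiment). Points are colored by class, filled where the adjusted p is under 0.05, and bars are standard errors. Drawn are the collagens tested in all 4 data sets except *Col8a1*, whose standard error was 16.7 at 6 weeks. Most points lie right of 0. The tests, which also cover collagens not drawn, called 22 of 26 at 9 weeks, 24 of 25 at 4 weeks, 10 of 25 at 6 weeks and 5 of 26 in the E2 experiment.

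Type IV collagen was read from *Col4a1*, the most widespread chain of the basement membrane sheet. Its 9-week basal libraries had 3562 and 5955 normalized CPM in *Cdkn1b*+/+ and 4695 and 3794 in *Cdkn1b*-/-, and the 12 luminal libraries lay between 77.5 and 883 (median 213, 12 libraries). At 4 weeks the 5 basal libraries had 663, 2526, 1939, 461 and 2941, and the luminal ones lay between 3.37 and 19.4 (median 8.14, 6 libraries). At 6 weeks the basal values were 1284, 816, 954, 2562 and 1475 and the luminal ones 0.192, 7.82, 54.7 and 288. No luminal library reached a basal library in any data set. On the log2 scale, the difference of basal from luminal cells at 9 weeks was 4.33 (standard error 0.41, adjusted p = 2.8e-06) and at 4 weeks 7.65 (standard error 0.68, adjusted p = 2.2e-06). At 6 weeks it was 5.76 (standard error 0.95, adjusted p = 0.0084) and in the E2 experiment 4.12 (standard error 0.87, adjusted p = 0.037). The call in the E2 experiment held in 3 of 12 fits that left out 1 library. The less abundant type IV chains *Col4a3* and *Col4a4*, known from the kidney glomerulus, were under 10 normalized CPM in most libraries and were both higher in basal cells at 9 weeks (log2 fold change 1.36, adjusted p = 0.013, and 2.65, adjusted p = 3.5e-05) and at 4 weeks (log2 fold change 5.92, adjusted p = 0.0021, and 3.05, adjusted p = 0.0031).

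*Col17a1*, the hemidesmosome collagen, separated the fractions in the same way. Its 9-week basal libraries had 1612, 1864, 1563 and 1290.5 normalized CPM, the *Cdkn1b*+/+ pair first, and the luminal libraries lay between 6.94 and 169 (median 23.8, 12 libraries). The 4-week basal libraries had 340.4, 976, 769, 248 and 1331, and the luminal ones lay between 0.0541 and 2.94 (median 1.17, 6 libraries). At 6 weeks the basal libraries had 691, 931, 453, 909.5 and 1078 and the luminal ones 7.66, 2.68, 1.81 and 5.25. Basal and luminal libraries did not overlap in any data set. The log2 fold changes were 5.56 (standard error 0.63, adjusted p = 1e-05), 9.56 (standard error 0.80, adjusted p = 1.4e-06) and 7.63 (standard error 0.60, adjusted p = 0.00049) at 9, 4 and 6 weeks. In the E2 experiment it was 6.98 (standard error 1.34, adjusted p = 0.026). There *Col17a1* did not pass with the animal as a block (adjusted p = 0.092), and its call held in 4 of 12 fits that left out 1 library.

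*Col18a1*, a basement membrane proteoglycan from which endostatin is cleaved, had 658 and 702 normalized CPM in *Cdkn1b*+/+ and 756 and 518 in *Cdkn1b*-/- basal libraries at 9 weeks, and the luminal libraries lay between 14.7 and 294 (median 71.4, 12 libraries). On the log2 scale the difference was 3.38 (standard error 0.40, adjusted p = 1.6e-05) at 9 weeks, 4.94 (standard error 0.75, adjusted p = 0.00019) at 4 weeks, 4.96 (standard error 0.68, adjusted p = 0.004) at 6 weeks and 3.55 (standard error 0.61, adjusted p = 0.022) in the E2 experiment, without overlap in any. *Col7a1*, the anchoring fibril collagen, was a basal gene at 9 weeks, with 104, 192, 109 and 109 in basal libraries and no luminal library above 8.59. It was higher in basal cells at 9 weeks (log2 fold change 5.58, standard error 0.56, adjusted p = 4e-06) and 4 weeks (log2 fold change 5.25, standard error 0.35, adjusted p = 2.6e-07) but not past the threshold at 6 weeks (log2 fold change 1.94, standard error 0.81, adjusted p = 0.21) or in the E2 experiment (log2 fold change 4.12, standard error 1.11, adjusted p = 0.086). *Col15a1*, another collagen of the basement membrane zone, was the exception at 9 weeks: its basal libraries had 19.0, 33.5, 46.9 and 35.0, inside the luminal range of 5.72 to 99.3, with a log2 difference of 0.26 (standard error 0.38, adjusted p = 0.61). At 4 weeks it was higher in basal cells without overlap (log2 fold change 4.29, standard error 0.73, adjusted p = 0.00047). Its call at 6 weeks rested on 2 luminal libraries at 0 counts, the ranges overlapped, and it was lost with the animal as a block (adjusted p = 0.084).

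**Figure D2:**
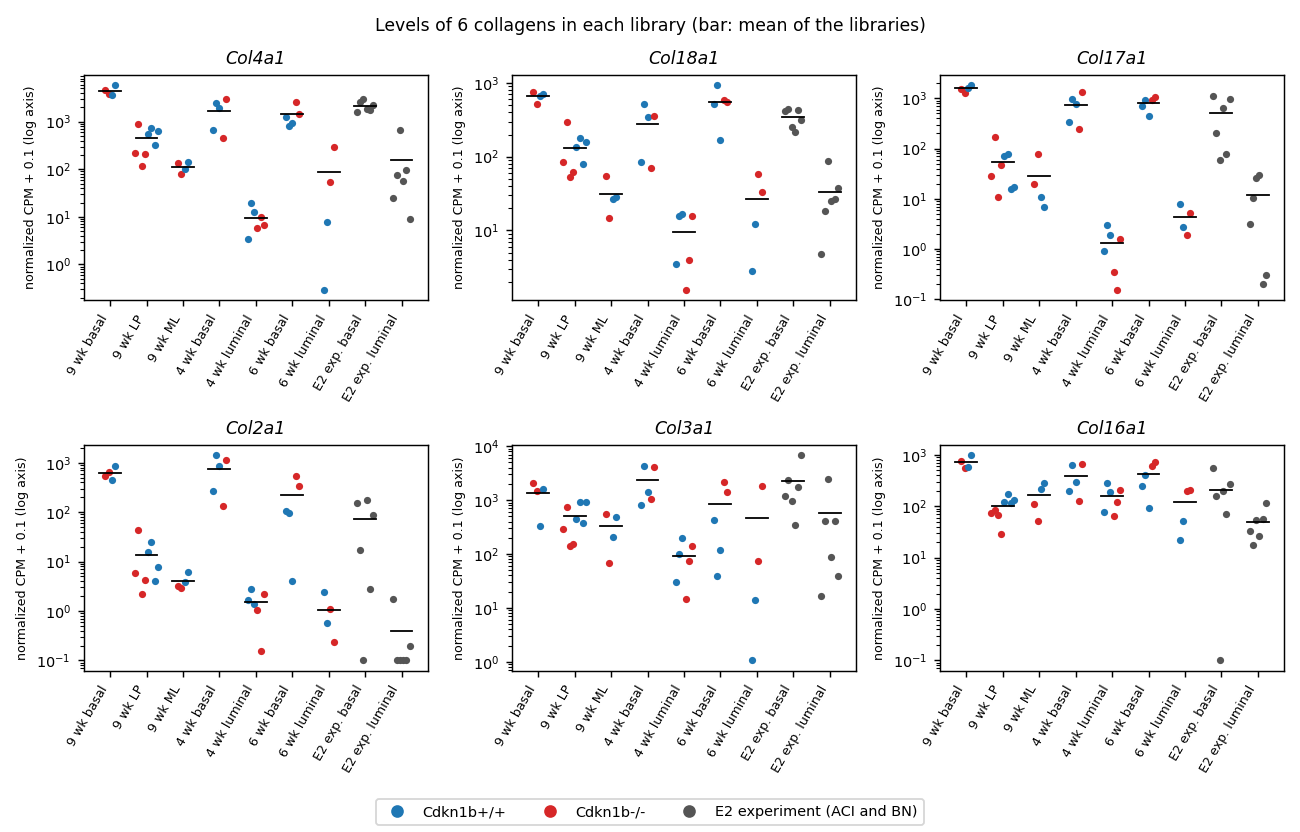
Level of 6 collagens in each library, in normalized CPM plus 0.1 on a log axis, by age and population; circles are libraries, colored by genotype or as the E2 experiment, and bars are means. Basal libraries of *Col4a1* and *Col17a1* stand above every luminal library of the same age, while the 6-week luminal library labelled *Cdkn1b*-/- 2 (*Col4a1* 288) lies far above the *Cdkn1b*+/+ luminal pair.

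Among the fibrillar collagens, the major stromal chains were also higher in basal libraries but scattered widely. *Col1a1* had 126 and 884 normalized CPM in the 9-week *Cdkn1b*+/+ basal libraries and 925 and 644 in the *Cdkn1b*-/- ones, and the luminal libraries lay between 18.6 and 327 (median 109.6, 12 libraries). Basal library *Cdkn1b*+/+ 1 therefore lay within the luminal range. The log2 difference was 2.07 (standard error 0.60, adjusted p = 0.012) at 9 weeks and 4.34 (standard error 0.73, adjusted p = 0.00042) at 4 weeks, where the basal libraries had 162, 1332, 1644, 456 and 2390.0. *Col3a1*, which coassembles with type I in loose stroma, followed with log2 fold changes of 1.75 (standard error 0.53, adjusted p = 0.016) and 4.82 (standard error 0.73, adjusted p = 0.00018). At 6 weeks and in the E2 experiment neither passed (*Col1a1* adjusted p = 0.18 and 0.32; *Col3a1* 0.17 and 0.43). Of the type V chains, which set fiber diameter, *Col5a2* was higher in basal cells at 9 weeks (log2 fold change 4.09, standard error 0.45, adjusted p = 7.7e-06), 4 weeks (log2 fold change 6.50, standard error 0.51, adjusted p = 8.1e-07) and 6 weeks (log2 fold change 5.86, standard error 1.01, adjusted p = 0.011). *Col5a1* was higher at 9 and 4 weeks (log2 fold changes 2.47 and 5.22; adjusted p = 9e-05 and 4.9e-06), and *Col5a3* at 9 and 4 weeks and in the E2 experiment (log2 fold changes 2.36, 6.71 and 5.35; adjusted p = 0.00056, 5.7e-06 and 0.046; in the E2 experiment 0.066 with the animal as a block, and over 0.05 without any 1 of the 12 libraries). Without basal library *Cdkn1b*+/+ 2 neither *Col1a1* nor *Col3a1* passed at 9 weeks (adjusted p up to 0.21), and *Col3a1* did not without basal library *Cdkn1b*-/- 1 or mature luminal library *Cdkn1b*+/+ 1. *Col27a1* did not pass in any of the 4 data sets.

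Markers of fibroblasts, which make fibrillar collagen, moved with part of this. Their summed level over 10 markers was 94.9 to 397 normalized CPM in 9-week basal against 31.1 to 189 in luminal libraries, where 4 of 10 were higher in basal cells and 1 lower, and 295 to 2200.2 against 16.4 to 60.3 at 4 weeks, where 9 were higher and 1 lower. At 6 weeks and in the E2 experiment 0 fibroblast markers passed by edgeR. Schwann cell markers were higher in basal cells for 2 of 6 genes at 9 weeks (1 was lower), 5 of 6 at 4 weeks and 4 of 6 at 6 weeks. Of 9 endothelial markers 1 was lower in basal cells at 9 weeks, with summed levels of 81.9 to 210.3 in basal and 91.8 to 971 in luminal libraries. Pericyte markers in the E2 experiment summed to 135 to 3317 in basal and 39.7 to 539 in luminal libraries, with 0 of 6 past the threshold by edgeR (4 at an unadjusted p under 0.05). At 9 and 4 weeks none of the fibroblast, endothelial, pericyte or Schwann cell markers was at 0 throughout a group, and at 6 weeks the fibroblast marker *Dpt* was at 0 in the *Cdkn1b*+/+ basal libraries. The part of these cells in the collagen levels was not tested.

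The 2 largest differences at 9 weeks were those of *Col2a1* and *Col9a2*, collagens best known from cartilage. *Col2a1*, the main fibrillar chain of cartilage, had 441, 859, 538 and 656 normalized CPM in the 9-week basal libraries, the *Cdkn1b*+/+ pair first, and the luminal libraries lay between 2.09 and 44.2 (median 4.95, 12 libraries). At 4 weeks its basal libraries had 273, 1413, 866, 133 and 1116, and the luminal ones lay between 0.0541 and 2.68 (median 1.43, 6 libraries). Fractions did not overlap at either age, and the log2 fold changes were 6.43 (standard error 0.69, adjusted p = 6.3e-06) and 9.18 (standard error 0.86, adjusted p = 3.5e-06). *Col9a2*, a chain of the type IX collagen that coats type II fibers, had 219, 526, 395 and 437 in the 9-week basal libraries and luminal values between 1.83 and 26.0 (median 4.36, 12 libraries), with log2 fold changes of 6.06 (standard error 0.62, adjusted p = 4.4e-06) at 9 and 5.01 (standard error 0.47, adjusted p = 3.8e-06) at 4 weeks. Its partner chain *Col9a1* was higher at 9 and 4 weeks (log2 fold changes 4.72 and 7.58; adjusted p = 6.5e-05 and 3.9e-06). At 6 weeks *Col2a1* passed (log2 fold change 7.61, standard error 1.14, adjusted p = 0.0058), *Col9a1* did not (adjusted p = 0.055), and the call of *Col9a2* (adjusted p = 0.0066) rested on *Cdkn1b*+/+ luminal libraries at 0 counts, with overlapping ranges. In the E2 experiment none of the 3 passed (adjusted p = 0.084 for *Col2a1*, 0.53 for *Col9a1* and 0.13 for *Col9a2*). The type XI chains were low: *Col11a2* was higher in basal cells at 9 and 4 weeks (log2 fold changes 3.69 and 3.05; adjusted p = 1.8e-06 and 0.00023), and *Col11a1* at 4 weeks (log2 fold change 6.60; adjusted p = 2.1e-06) but not at 9 (adjusted p = 0.56).

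The other collagens include fiber-associated, microfibrillar and transmembrane members. *Col16a1*, a fiber-associated collagen, had 594, 985, 757 and 547 normalized CPM in the 9-week basal libraries and luminal values between 29.4 and 278 (median 112, 12 libraries). It was expressed in both fractions and was higher in basal cells at 9 weeks (log2 fold change 2.65, standard error 0.25, adjusted p = 2.4e-06), 4 weeks (log2 fold change 1.43, standard error 0.50, adjusted p = 0.042) and 6 weeks (log2 fold change 2.27, standard error 0.48, adjusted p = 0.026), with overlapping ranges at the younger ages. The call at 4 weeks was lost in 7 of 11 fits that left out 1 library, with a log2 fold change of 0.59 without basal library *Cdkn1b*-/- 2, and that at 6 weeks in 5 of 9. *Col14a1*, which binds fibrils through decorin, differed less (log2 fold changes 1.22, 2.09 and 3.04 at 9, 4 and 6 weeks; adjusted p = 0.038, 0.0018 and 0.0022). Its ranges overlapped at each of these ages, and the call at 9 weeks held in 10 of 16 fits that left out 1 library. *Col6a2*, a chain of beaded microfilaments, was higher in basal cells at 9, 4 and 6 weeks (log2 fold changes 2.67, 5.96 and 3.16; adjusted p = 0.00029, 5.7e-06 and 0.045; at 6 weeks 0.051 with the animal as a block). At 6 weeks its ranges overlapped, with 57.5 to 168 in basal libraries and 1.15 to 181 in luminal ones. That call held in 2 of 9 fits that left out 1 library. The transmembrane collagen *Col23a1* was higher at 9 weeks (log2 fold change 3.71, adjusted p = 5.9e-05) and 4 weeks (log2 fold change 3.09, adjusted p = 0.00013). In the E2 experiment it had 0 counts in all 6 luminal libraries and 2.93 to 17.8 normalized CPM in the basal ones, which alone brought it past the filter. The basal mean was 472 times a floor of 3 counts over the luminal group, and 414 times without the highest basal library. Its adjusted p was 0.033, and 0.14 with the animal as a block. The call held in only 2 of 12 fits that left out 1 library. *Col8a1*, *Col13a1* and *Col26a1* stayed low at 9 weeks, with mean basal levels of 4.58, 2.29 and 2.07, and were all higher in basal cells at 9 and 4 weeks (adjusted p = 0.026, 0.0043 and 1.1e-05 at 9 weeks). The call of *Col8a1* at 4 weeks was lost with the animal as a block (adjusted p = 0.08). When 1 library was left out, its calls at 9 and 4 weeks held in 11 of 16 and 4 of 11 fits. The ceramide transfer gene *Col4a3bp*, no collagen, was lower in basal cells at 9 weeks (log2 fold change -1.30, standard error 0.27, adjusted p = 0.0013) and 4 weeks (log2 fold change -1.04, standard error 0.28, adjusted p = 0.01).

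Genes that make, process and bind collagen were counted beside the 24.1% of all genes that were higher in basal cells at 9 weeks and the 44.7% called, and the 20.3% and 35.1% at 4 weeks. Of the prolyl and lysyl hydroxylases and glycosyltransferases that modify procollagen chains, 8 of 12 were higher in basal cells at 9 weeks, led by *P3h3* (log2 fold change 2.54, standard error 0.15, adjusted p = 1.4e-07), *Plod1* (log2 fold change 1.98, standard error 0.15, adjusted p = 4.6e-07) and *P3h1* (log2 fold change 1.51, standard error 0.12, adjusted p = 6.7e-07). Of 4 folding genes, *Serpinh1*, the collagen chaperone Hsp47 (log2 fold change 1.45, standard error 0.13, adjusted p = 1.7e-06), and *Fkbp10* (log2 fold change 1.79, standard error 0.18, adjusted p = 4e-06) were higher. The propeptide proteases *Bmp1* (log2 fold change 3.34, standard error 0.27, adjusted p = 8.9e-07) and *Adamts2* (log2 fold change 4.10, standard error 0.53, adjusted p = 3.3e-05) were among 4 of 7 processing genes that were higher, and *Tll1* was lower (log2 fold change -1.44, standard error 0.55, adjusted p = 0.045). Lysyl oxidases, which crosslink fibers, were higher for 4 of 5, led by *Loxl4* (log2 fold change 4.29, standard error 0.39, adjusted p = 2e-06) and *Loxl3* (log2 fold change 3.65, standard error 0.43, adjusted p = 1.4e-05). Among 9 breakdown genes 4 were higher, including the gelatinase *Mmp2* (log2 fold change 3.88, standard error 0.52, adjusted p = 4.1e-05) and the collagen uptake receptor *Mrc2* (log2 fold change 4.19, standard error 0.38, adjusted p = 1.9e-06), and the collagenase *Mmp13* was lower (log2 fold change -3.76, standard error 0.95, adjusted p = 0.0055). Of 6 receptors, *Itga1* (log2 fold change 2.25, standard error 0.38, adjusted p = 0.00031), *Itga11* and *Itgb1*, whose product is the Cd29 of the sort, were higher. At 4 weeks the counts were 7 of 12, 2 of 4, 5 of 6 (1 lower), 5 of 5, 4 of 9 (1 lower) and 4 of 6 in the same order. In either direction, 5 of 9 breakdown genes were called at both ages.

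Within the luminal fraction at 9 weeks, luminal progenitors (the PNA+ and Cd49b+ libraries together) were set against mature luminal cells. Of 26 collagens, 5 were higher in progenitors and 1 lower, against 11.7% of all genes higher, 11.7% lower and 23.4% called. The 5 were the basement membrane zone genes *Col4a1*, *Col15a1* and *Col18a1*, the fibrillar *Col5a2* and the short-chain *Col8a1*. *Col4a1* lay between 118 and 883 (median 431, 8 libraries) in progenitors and was 100.5 and 139 in *Cdkn1b*+/+ and 134 and 77.5 in *Cdkn1b*-/- mature luminal libraries. *Col15a1* lay between 19.6 and 99.3 (median 51.3, 8 libraries) in progenitors and was 11.6, 14.3, 22.1 and 5.72 in the 4 mature luminal libraries. The log2 differences were 1.98 (standard error 0.49, adjusted p = 0.012) for *Col4a1*, 2.06 (standard error 0.45, adjusted p = 0.0072) for *Col15a1* and 2.08 (standard error 0.50, adjusted p = 0.01) for *Col18a1*. *Col5a2* (log2 fold change 1.61, standard error 0.53, adjusted p = 0.042) and *Col8a1* (log2 fold change 2.11, standard error 0.70, adjusted p = 0.044) were closer to the threshold. Leaving out 1 library at a time kept their calls in 6 and 3 of 12 fits. With the PNA+ and Cd49b+ libraries of 1 genotype and number summed, *Col8a1* was lost (adjusted p = 0.072) and *Col2a1* passed (adjusted p = 0.042). *Col6a4*, a low-level type VI chain, was lower in progenitors, at 0 to 0.178 against 1.71, 1.32, 0.919 and 0.558 (log2 fold change -5.01, standard error 0.77, adjusted p = 0.0033). Endothelial markers were higher in progenitors for 8 of 9 genes, with summed levels of 154 to 971 against 91.8 to 126, and pericyte markers for 4 of 6, with 87.6 to 358 against 68.8 to 169.9. Their part in the result was not tested. Without mature luminal library *Cdkn1b*-/- 2 the count of collagens fell from 6 to 2. With genotype and number as a block all 6 were called and *Col16a1* (adjusted p = 0.05 after rounding) and *Col4a3* (adjusted p = 0.045) passed as lower in progenitors. Of the companion genes, *Itga1* (adjusted p = 0.0046) and *Loxl2* (log2 fold change 1.84, standard error 0.48, adjusted p = 0.015) were higher and *Tll2* lower (log2 fold change -4.12, standard error 0.62, adjusted p = 0.0033) in progenitors.

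The next question was whether loss of p27 changed collagen expression in 9-week cells. No collagen passed the test in any population. In luminal progenitors 0 of 26 passed by edgeR (3 at an unadjusted p under 0.05, and 3 by DESeq2), against 3.4% of all genes called. The PNA+ and Cd49b+ libraries of 1 genotype and number were correlated, and with them summed 5 genes of the whole table were called in place of 436, and 0 collagens. In mature luminal cells 0 of 26 passed (2 unadjusted, 1 by DESeq2) against 0.133%, and in basal cells 0 of 26 (2 unadjusted, 1 by DESeq2) against 0.0546%. For the difference of the genotype effect between progenitors and basal cells, 0 of 26 passed (0 unadjusted, 0 by DESeq2) against 0% of all genes. Each of these shares counts edgeR calls only.

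*Col16a1* came closest. Its *Cdkn1b*-/- progenitor libraries had 67.5 and 29.4 normalized CPM (PNA+) and 72.9 and 84.7 (Cd49b+), and the *Cdkn1b*+/+ ones 114 and 135 (PNA+) and 122 and 170.3 (Cd49b+). Every *Cdkn1b*-/- progenitor library was below every *Cdkn1b*+/+ one, but the log2 difference of -1.09 (standard error 0.32, adjusted p = 0.088) did not pass. The mature luminal libraries had 109.8 and 51.0 in *Cdkn1b*-/- and 218 and 278 in *Cdkn1b*+/+, again without overlap (log2 fold change -1.63, standard error 0.46, adjusted p = 0.31). In basal cells *Col16a1* was 757 and 547 in *Cdkn1b*-/- and 594 and 985 in *Cdkn1b*+/+ (log2 fold change -0.28, standard error 0.45, adjusted p = 0.91). *Col13a1* (log2 fold change -1.57, standard error 0.51, adjusted p = 0.12) and *Col27a1* (log2 fold change 0.56, standard error 0.19, adjusted p = 0.13) were the other collagens with an unadjusted p under 0.05 in progenitors. In basal cells these were *Col27a1* (log2 fold change 1.18, standard error 0.27, adjusted p = 0.21) and *Col11a1* (log2 fold change 4.28, standard error 1.56, adjusted p = 0.43), and in mature luminal cells they were *Col16a1* and *Col17a1*, the latter with log2 fold change 2.44, standard error 1.11 and adjusted p = 0.68.

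A single progenitor library changed the count in this comparison. For *Col4a1* the *Cdkn1b*-/- values were 118 and 208 (PNA+) and 219 and 883 (Cd49b+), beside 316, 626, 546 and 731 in the 4 *Cdkn1b*+/+ libraries, so *Cdkn1b*-/- Cd49b+ library 2 lay above every *Cdkn1b*+/+ library and the other 3 below. *Col18a1* had 52.5, 62.5, 84.7 and 294 in the *Cdkn1b*-/- libraries in the same order. This library also held 3389 normalized CPM of basal markers, against 474 and 503 in the PNA+ and 744 in the first Cd49b+ *Cdkn1b*-/- library, and 971 of endothelial markers against 154 and 299, and 271 in the same order. In *Cdkn1b*+/+ progenitors the endothelial sums were 397 and 729 (PNA+) and 567 and 767 (Cd49b+), all above the other 3 *Cdkn1b*-/- libraries. Pericyte sums were 108 and 87.6 (PNA+) and 131 and 316 (Cd49b+) in *Cdkn1b*-/- against 210.1 and 358 and 299.6 and 313 in *Cdkn1b*+/+, so the same 3 *Cdkn1b*-/- libraries were below every *Cdkn1b*+/+ one. Without it, 5 collagens passed and were lower in *Cdkn1b*-/- progenitors: *Col16a1*, *Col4a1*, *Col5a1*, *Col5a2* and *Col5a3*, with log2 fold changes of -1.26, -1.61, -1.48, -1.63 and -1.65 and adjusted p between 0.014 and 0.046. The same fit called 1209 of all genes, against 436 with the library in. The part of these markers in the result was not tested. Of the companion genes in progenitors, *Fkbp10*, a folding prolyl isomerase (log2 fold change -1.04, standard error 0.23, adjusted p = 0.029), and *P4ha1*, a prolyl hydroxylase (log2 fold change -1.14, standard error 0.28, adjusted p = 0.04), were lower in *Cdkn1b*-/-, and the propeptide protease *Adamts3* was higher (log2 fold change 1.13, standard error 0.23, adjusted p = 0.017). With the PNA+ and Cd49b+ libraries summed none of the 3 passed (adjusted p = 0.36, 0.59 and 0.46), and leaving out 1 library at a time kept 2, 2 and 4 of 8 calls.

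**Figure D3:**
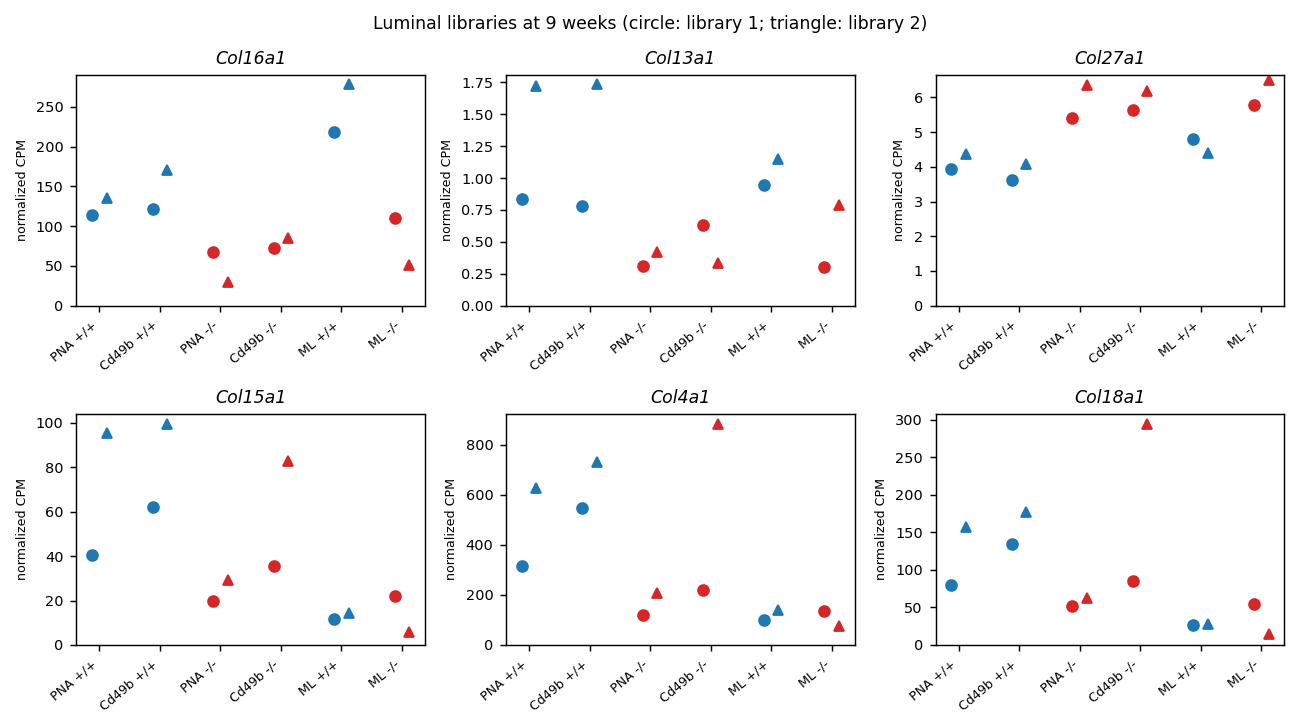
Collagen levels in the luminal libraries of 9 weeks, in normalized CPM on linear axes, by sort (PNA+, Cd49b+ and mature luminal, ML) and genotype; circles are library 1 and triangles library 2. *Cdkn1b*-/- Cd49b+ library 2 (*Col4a1* 883, *Col18a1* 294) stands apart from the other *Cdkn1b*-/- progenitors, while *Col16a1* is lower in each *Cdkn1b*-/- group.

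At 4 weeks 0 of 25 collagens passed between genotypes in basal and 0 of 25 in luminal cells by edgeR (0 unadjusted and 0 by DESeq2 in each), and 0% of all genes were called in both. Libraries of 1 genotype differed widely. *Col1a1* was 456 and 2390.0 in *Cdkn1b*-/- and 162, 1332 and 1644 in *Cdkn1b*+/+ basal cells (log2 fold change 0.49, standard error 0.98, adjusted p = 1), and *Col3a1* was 1050.1 and 4051 in *Cdkn1b*-/- and 806, 4322 and 1392 in *Cdkn1b*+/+ cells (log2 fold change 0.27, standard error 0.96, adjusted p = 1). Ranges of the genotypes overlapped for both genes. The fibroblast marker sum was 2200.2 in *Cdkn1b*-/- library 1, which had the lower level of both, and 439 in *Cdkn1b*-/- library 2. Without library 2 the log2 fold change of *Col1a1* was -1.20. *Col4a1* was 461 and 2941 in *Cdkn1b*-/- and 663, 2526 and 1939 in *Cdkn1b*+/+ basal cells (log2 fold change 0.04, standard error 0.79, adjusted p = 1).

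At 6 weeks the 2 *Cdkn1b*-/- basal libraries had the highest levels of *Col1a1* and *Col3a1* among the basal libraries, but no gene of the whole table passed between genotypes. In basal cells 0 of 25 collagens passed by edgeR (6 unadjusted, 3 by DESeq2) against 0% of all genes, and in luminal cells 0 of 25 (12 unadjusted, 12 by DESeq2) against 0%. Of the 25, 23 had a positive fold change in basal cells. The 0% shares are of edgeR calls, and no share over all genes is given for the other counts. Those counts therefore cannot be read as particular to collagens. *Col1a1* was 779 and 513 in the *Cdkn1b*-/- basal libraries and 90.0, 19.5 and 47.5 in the *Cdkn1b*+/+ ones, without overlap (log2 fold change 3.73, standard error 1.01, adjusted p = 0.38). *Col3a1* was 2207 and 1398 against 423, 39.5 and 117, also without overlap (log2 fold change 3.32, standard error 1.35, adjusted p = 0.53). The smallest adjusted p was that of *Col14a1*, with 296 and 292 against 103, 50.8 and 107 (log2 fold change 1.88, standard error 0.44, adjusted p = 0.33). *Col15a1* was 54.6 and 26.5 against 6.27, 2.73 and 0.975 (log2 fold change 3.68, standard error 1.07, adjusted p = 0.4). Several marker sums moved with this: basal markers were 13545 and 15926 in *Cdkn1b*-/- and 7741, 10249 and 7416 in *Cdkn1b*+/+, luminal markers 4120.2 and 3910.3 against 5299.9, 7052 and 6976, fibroblast markers 171 and 192 against 52.2, 23.7 and 61.0, and Schwann cell markers 2706 and 1574 against 468, 348 and 383. Their part in the result was not tested.

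In 6-week luminal cells, several collagens were at or near 0 in *Cdkn1b*+/+ and detected in both *Cdkn1b*-/- libraries, without passing the test. *Col15a1* had 0 counts in both *Cdkn1b*+/+ libraries and 17.9 and 32.5 normalized CPM in the *Cdkn1b*-/- ones. The *Cdkn1b*-/- mean was 198 times a floor of 3 counts over the *Cdkn1b*+/+ group, and library 1 alone 140 times. *Col9a2* had 0 counts in both *Cdkn1b*+/+ libraries and 5.37 and 43.6 normalized CPM in the *Cdkn1b*-/- ones. Their mean was 192 times the same floor, and library 1 alone 42.0 times. Neither passed the test across genes (adjusted p = 0.12 and 0.12). *Col14a1* was 74.7 and 65.3 in *Cdkn1b*-/- and 3.93 and 6.90 in *Cdkn1b*+/+ (log2 fold change 3.70, standard error 0.55, adjusted p = 0.12), and *Col16a1* 197 and 204 against 21.8 and 52.1 (log2 fold change 2.45, standard error 0.71, adjusted p = 0.17); these levels were close in the 2 *Cdkn1b*-/- libraries. Others were far higher in the library labelled *Cdkn1b*-/- 2: *Col3a1* was 73.0 and 1794 in the *Cdkn1b*-/- pair and 0.958 and 13.8 in *Cdkn1b*+/+, and *Col4a1* 54.7 and 288 against 0.192 and 7.82. The paper lists *Col1a1* among the genes higher in *Cdkn1b*-/- luminal cells of this age group. Here its log2 fold change was 4.19, not past the threshold by edgeR, and 0.91 without the library labelled *Cdkn1b*-/- 2. That library, whose *Cdkn1b* level did not meet its label, held 8733 normalized CPM of adipocyte markers against 424 in library 1, 1902 against 18.4 of fibroblast markers and 1845 against 192 of endothelial markers. Of the adipocyte markers only *Lep* was at 0 in both *Cdkn1b*-/- libraries. The part of these cells in the result was not tested. Leaving that library out gave 0 calls, and leaving out library 1 instead gave 10.

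**Figure D4:**
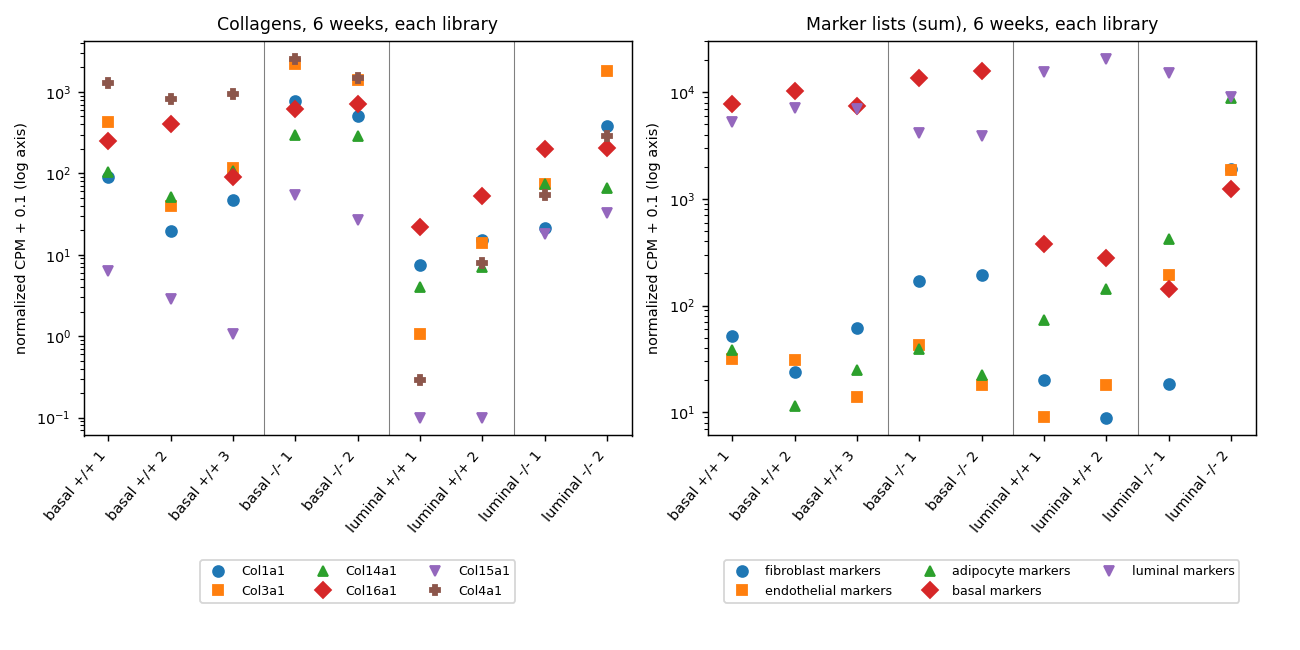
Collagen levels (left) and summed marker levels (right) in each 6-week library, in normalized CPM plus 0.1 on log axes. *Col1a1* and *Col3a1* lie higher in the *Cdkn1b*-/- than in the *Cdkn1b*+/+ basal libraries, and the luminal library labelled *Cdkn1b*-/- 2 holds 8733 of adipocyte and 1902 of fibroblast markers.

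Between 4 and 6 weeks, around the start of puberty, few collagens changed past the threshold in *Cdkn1b*+/+ cells. Of 25, 2 were lower at 6 weeks in basal cells and none higher, against 5.68% of all genes lower and 10.5% called. *Col1a1* went from 162, 1332 and 1644 at 4 weeks to 90.0, 19.5 and 47.5 at 6 weeks, without overlap (log2 fold change -4.32, standard error 1.08, adjusted p = 0.019). *Col2a1* went from 273, 1413 and 866 to 108, 96.1 and 3.90 (log2 fold change -3.62, standard error 1.07, adjusted p = 0.038). Leaving out any 1 of the 6 libraries ended the call of *Col2a1* (adjusted p = 0.051 to 0.13), and *Col1a1* passed only without 4-week library *Cdkn1b*+/+ 1 or 6-week library *Cdkn1b*+/+ 1. Basement membrane *Col4a1* did not pass, with 663, 2526 and 1939 at 4 against 1284, 816 and 954 at 6 weeks (log2 fold change -0.75, standard error 0.85, adjusted p = 0.6). Companion genes lower at 6 weeks in basal cells included *Fkbp10* (log2 fold change -2.44, standard error 0.46, adjusted p = 0.0039), *Plod1* (log2 fold change -2.44, standard error 0.47, adjusted p = 0.0045), *Timp2* (log2 fold change -1.91, standard error 0.37, adjusted p = 0.0048), *Ctsk* (log2 fold change -5.12, standard error 0.98, adjusted p = 0.0043), *Loxl1* (log2 fold change -5.10, standard error 1.18, adjusted p = 0.013) and *Pcolce* (log2 fold change -4.60, standard error 1.17, adjusted p = 0.021). Fibroblast markers were lower too, for 2 of 10 genes, with sums of 295, 545 and 423 at 4 and 52.2, 23.7 and 61.0 at 6 weeks. Basal markers summed to 18279, 17069 and 15936 at 4 and 7741, 10249 and 7416 at 6 weeks (3 of 10 lower), Schwann cell markers to 1530.2, 909 and 662 and then 468, 348 and 383 (2 of 6 lower), and luminal markers to 3771, 4041 and 4439 and then 5299.9, 7052 and 6976 (1 of 10 higher), each without overlap. Their part in the collagen levels was not tested. Age and any difference in how the libraries of the 2 ages were prepared cannot be told apart.

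In *Cdkn1b*+/+ luminal cells 3 of 25 passed, 1 higher and 2 lower at 6 weeks, against 1.19% of all genes higher, 1.92% lower and 3.1% called. *Col14a1* went from 28.1, 117 and 48.2 to 3.93 and 6.90 (log2 fold change -3.57, standard error 0.68, adjusted p = 0.0096). *Col9a2* went from 17.3, 8.88 and 8.36 to 0 counts in both 6-week libraries (adjusted p = 0.0077). Its 4-week mean was 90.2 times a floor of 3 counts over the 6-week libraries, and 67.5 times without the highest 4-week library. *Col7a1* was higher at 6 weeks, with 1.77, 1.28 and 1.31 and then 12.4 and 18.0 (log2 fold change 3.38, standard error 0.84, adjusted p = 0.038). Without the 6-week library *Cdkn1b*+/+ 1 none of them passed, and without any other single *Cdkn1b*+/+ library *Col14a1* and *Col9a2* passed and *Col7a1* did not.

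The genotype effect in luminal cells differed between the ages for 4 of 25 collagens, all in the direction of a higher *Cdkn1b*-/- to *Cdkn1b*+/+ ratio at 6 weeks, against 0.986% of all genes in that direction and 1.21% called. They were *Col14a1* (difference of log2 fold changes 4.70, standard error 0.86, adjusted p = 0.016), *Col6a2* (difference 6.91, standard error 1.44, adjusted p = 0.025), *Col15a1* (adjusted p = 0.026) and *Col9a2* (adjusted p = 0.014). The last 2 have no bounded size because the 6-week *Cdkn1b*+/+ libraries were at 0 counts. *Col6a2* was 7.11 and 181 in *Cdkn1b*-/- and 1.15 and 1.46 in *Cdkn1b*+/+ at 6 weeks, and 0.647, 4.16 and 4.40 against 1.60, 5.08 and 8.88 at 4 weeks. Without the 6-week library labelled *Cdkn1b*-/- 2, *Col14a1* (log2 fold change 4.78, adjusted p = 0.04) and *Col9a2* still passed and *Col6a2* and *Col15a1* did not. Without the 6-week library *Cdkn1b*+/+ 1 none passed, without 4-week library *Cdkn1b*+/+ 3 2 passed, and without 6-week library *Cdkn1b*-/- 1 there were 11.

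In the E2 experiment neither hormone nor strain changed a collagen past the threshold. For E2 against control, 0 of 24 passed in basal (1 unadjusted, 1 by DESeq2) and 0 of 24 in luminal cells (0 unadjusted, 0 by DESeq2). For ACI against BN, 0 of 24 passed in basal (2 unadjusted, 0 by DESeq2) and 0 of 24 in luminal cells (3 unadjusted, 2 by DESeq2). In all 4 comparisons edgeR called 0% of all genes. *Col1a1* in basal libraries was 225 and 238 in ACI control, 231 and 66.7 in ACI E2, 473 in BN control and 3634 in BN E2 rats. The BN libraries were above the ACI ones (log2 fold change -3.22, standard error 1.00, adjusted p = 1), and the BN E2 basal library also held 6307 normalized CPM of fibroblast markers, the most of any basal library of the experiment. In luminal cells *Col17a1* was 3.02, 10.3, 26.3 and 29.7 in ACI and 0.0999 and 0.200 in BN rats, without overlap (log2 fold change 6.51, standard error 1.75, adjusted p = 0.99). *Col4a1* in basal cells was 1565 and 2582 in ACI control, 3040.4 and 1831 in ACI E2, 1744 in BN control and 2189.7 in BN E2 rats (log2 fold change 0.26, standard error 0.44, adjusted p = 1, for E2 and 0.20, standard error 0.47, adjusted p = 1, for strain).

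ACI E2 basal library 1 stood apart: it had the lowest basal marker sum (2981), a pericyte marker sum of 3317 and 0 counts of *Col2a1*, *Col14a1* and *Col16a1*, where ACI E2 basal library 2 had 178, 38.0 and 194. Without it, 7 rather than 5 collagens separated basal from luminal cells in this experiment. The count was 5 without ACI E2 luminal library 1. It was 2 without ACI E2 basal library 2 or either BN E2 library, 1 without library 1 of ACI control or BN control in either fraction, and 0 without ACI control library 2 of either fraction or ACI E2 luminal library 2.

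Set against each other within a library, fibrillar and basement membrane collagens differed in proportion between ages and genotypes in the basal fraction. The ratio of their summed normalized CPM, which is not per length and is compared only between libraries, was 1.89, 2.40 and 1.81 in the 4-week *Cdkn1b*+/+ libraries and 3.21 and 2.43 in the *Cdkn1b*-/- ones. At 6 weeks it was 0.506, 0.197 and 0.370 in *Cdkn1b*+/+ and 1.31 and 1.32 in *Cdkn1b*-/-, and at 9 weeks 0.300 and 0.559 in *Cdkn1b*+/+ against 0.702 and 0.725 in *Cdkn1b*-/-. The *Cdkn1b*-/- libraries were above the *Cdkn1b*+/+ ones at each age without overlap, while every 4-week library was above every 6-week and 9-week one. In the E2 experiment the ratio was 1.01 and 1.02 in ACI control, 0.540 and 0.421 in ACI E2, 1.41 in BN control and 4.39 in BN E2 rats, so the ACI pair was lower and the single BN library higher with E2. The ratio was calculated after the levels had been seen and is given as a description with no test. At 6 weeks the fibrillar sum was 4314 and 2895 in *Cdkn1b*-/- and 929, 359.9 and 429 in *Cdkn1b*+/+, and the basement membrane sum 3287 and 2188 against 1835, 1822 and 1159. Fibroblast marker sums were 295 to 2200.2 at 4, 23.7 to 192 at 6 and 94.9 to 397 at 9 weeks, and their part in the ratio was not tested.

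**Figure D5:**
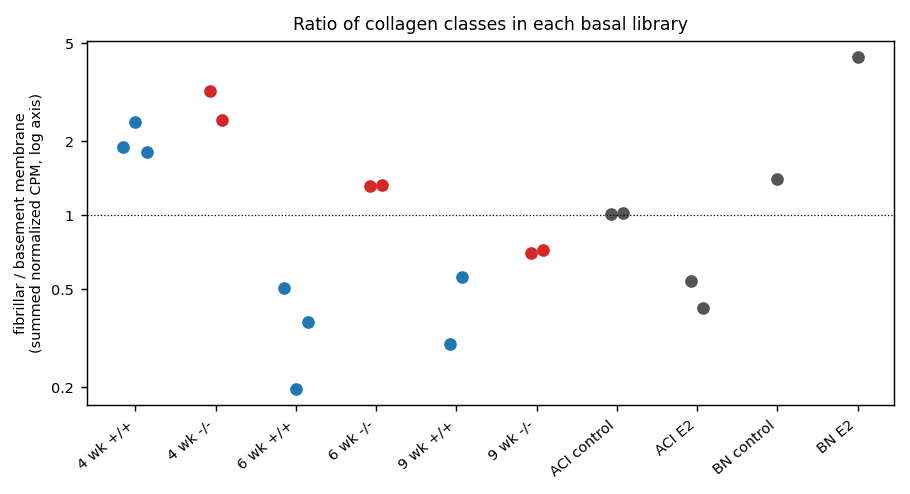
Ratio of the summed normalized CPM of fibrillar to basement membrane collagens in each basal library, on a log axis, by age, genotype, strain and E2; the dotted line is a ratio of 1. Ratios run from 0.197 in a 6-week *Cdkn1b*+/+ library to 4.39 in the BN E2 library, and at each age the *Cdkn1b*-/- libraries lie above the *Cdkn1b*+/+ ones.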

How the data were processed

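RNA of sorted cells was amplified with a low-input kit and sequenced as single reads. The authors aligned reads to rn6 with STAR 2.5.1b and counted them per gene with htseq-count and the refGene annotation, and deposited raw counts per gene. Rows for unassigned reads (47.1% to 77.0% of a file) were left out, and 0 columns of per-sample values were unused. Deposited progesterone receptor peaks were not used here.

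Counts were tested with edgeR 4.0.16 (R 4.3.3): filterByExpr by group, TMM normalization and the quasi-likelihood F test, two-sided, Benjamini-Hochberg adjusted over all genes tested, called under 0.05. Standard errors were calculated back from this test, as the absolute log2 fold change over the square root of F. Separate fits were made for 9, 4 and 6 weeks, for 4 and 6 weeks together and for the E2 experiment (basal, luminal and both). Luminal at 9 weeks is the mean of the PNA+, Cd49b+ and mature luminal groups. The alternatives were DESeq2 1.42.0, RLE factors, other filters, an added fold change, left-out libraries and replicate blocks. Tests were checked on simulated data. Replicates of a group at 4 and 6 weeks and in the E2 experiment carry different animal codes and were read as different animals. At 9 weeks the titles give only a number, so these may be technical or biological replicates. All p-values measure the spread between these libraries. Of 28 replicate pairs compared, none agreed within sampling noise.

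Titles at 9 weeks number libraries within a genotype. Libraries of 1 genotype and number deviated together across populations (correlations 0.357 to 0.917, 12 pairs); those of 1 animal code correlated at 0.218 to 0.785 (5 pairs) at 4 weeks, -0.009 to 0.117 (4 pairs) at 6 weeks and -0.329 to 0.329 (6 pairs) in the E2 experiment.

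Members and lists were chosen with earlier results of these data known. Named were all collagens called where at most 12 passed, otherwise up to 4 per class and direction with the largest fold change; *Col1a1*, *Col1a2*, *Col3a1*, *Col5a1*, *Col5a2*, *Col4a1*, *Col7a1*, *Col15a1*, *Col18a1*, *Col17a1*, *Col6a2* and *Col16a1* in any case; and up to 3 genes per companion list and direction by adjusted p. Further collagens were named after their values were seen. Companion lists held hydroxylases and glycosyltransferases, folding, processing, lysyl oxidases, breakdown and receptors; marker lists held basal, luminal, fibroblast, endothelial, pericyte, Schwann cell, adipocyte, lymphoid and myeloid genes. Lymphoid markers summed to at most 15.6 normalized CPM in any library, and myeloid markers to at most 2012.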

Additional observations from a re-analysis of the deposited data

Results flagged for a closer look

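In the 9-week luminal progenitors, 48 sets of 4 libraries (a collagen in 1 genotype) were checked for a library apart from the others. In 8 sets its gap to its nearest neighbor exceeded Dixon's 95% critical value for 4 samples. The rate of 1 in 20 by chance holds for independent sets, and these sets share the same libraries, so it does not apply. In 7 of the 8, *Cdkn1b*-/- Cd49b+ library 2 was highest among the 4 *Cdkn1b*-/- progenitor libraries: *Col18a1* 293.8 normalized CPM (nearest 84.7), *Col2a1* 44.2 (5.77), *Col4a1* 883 (219), *Col5a1* 29.5 (10.1), *Col5a3* 32.1 (9.61), *Col7a1* 8.59 (1.97) and *Col9a2* 26.0 (6.37). The eighth was *Col9a1* at 2.06 in *Cdkn1b*+/+ Cd49b+ library 2 (nearest 0.556). The basal and endothelial marker sums of the first library are given with the genotype comparison, and their part in these levels was not tested.

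By a test of the difference itself, the genotype effect in luminal cells differed between 6 and 4 weeks for 4 collagens (edgeR): *Col14a1* by 4.70 on the log2 scale (standard error 0.86, adjusted p = 0.016), *Col6a2* by 6.91 (1.44, 0.025), *Col15a1* by a fitted 11.6 (2.40, 0.026) and *Col9a2* by a fitted 12.5 (2.04, 0.014). The fitted sizes of the last 2 depend on *Cdkn1b*+/+ libraries at 0 counts and are no bounds.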

How the results depend on the processing

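Counts of collagens past the threshold kept to within 1.5 times under RLE size factors and under an added fold change of 1 on the log2 scale, in all 20 comparisons. DESeq2 gave other counts in 12: genotype at 9 weeks 1 in basal, 3 in progenitor and 1 in mature luminal cells; genotype at 6 weeks 3 in basal and 12 in luminal cells; basal against luminal 17 at 6 weeks and 13 in the E2 experiment; 6 against 4 weeks 7 in basal and 9 in luminal cells; the luminal difference of genotype effects between ages 10; E2 in basal cells 1 and ACI against BN in luminal cells 2. Requiring 10 counts in every library gave 10 calls for basal against luminal at 4 weeks, 5 at 6 weeks and 3 in the E2 experiment. It gave 2 for genotype in 6-week luminal cells and 2 for the difference between ages. A collagen under 10 counts in any library is not tested under this filter and could not be called. With no filter the counts were 4 for genotype in 6-week luminal cells, 7 for the difference between ages and 5 for 6 against 4 weeks in basal cells. The share of all genes called is not given beside these counts, so they cannot be read as particular to collagens. The cause of these changes was not tested.

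Leaving out 1 library at a time gave 16 to 23 calls for basal against luminal at 9 weeks, 21 to 24 at 4, 7 to 13 at 6 weeks and 0 to 7 in the E2 experiment, 2 to 9 for progenitors against mature luminal cells, 0 to 5 for genotype in progenitors, 0 to 10 in 6-week luminal cells, 0 to 1 and 0 to 2 for 6 against 4 weeks in basal and luminal cells, 0 to 11 for the difference between ages, and 0 in every other comparison. Genotype in 4-week basal cells turned direction for *Col1a1* without *Cdkn1b*+/+ library 1 (-0.04) or *Cdkn1b*-/- library 2 (-1.20), and for *Col14a1* without *Cdkn1b*-/- library 2 (-0.68); over the libraries left out these ran from -1.20 to 1.25 and from -0.68 to 1.03. None of these had passed. For the left-out fits the share of all genes called is not given, so their counts cannot be read as particular to collagens.

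Fits with a replicate block gave counts within 1.5 times, though not always of the same collagens: 0 for each genotype comparison at 9 weeks with the number as block, 22 for basal against luminal and 8 for progenitors against mature luminal cells with genotype and number, and 23, 9 and 4 for basal against luminal at 4 weeks, 6 weeks and in the E2 experiment with the animal code, of which 22, 6, 23, 8 and 2 were called without the block. Across genotypes the same number correlated at -0.407 to -0.136, so the numbers only share a name. Crossing them, chosen after seeing the data, gave 1 call in progenitors, *Col16a1* (adjusted p = 0.02), and 0 in basal and mature luminal cells. Summing the PNA+ and Cd49b+ libraries of a number gave 6 for progenitors against mature luminal cells, with *Col2a1* in place of *Col8a1*, and 0 for genotype. Fits of the compared libraries alone gave 0 for genotype.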

Other observations

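The share of all counts that fell on the 27 collagens was 0.986% to 1.57% in the 9-week basal and 0.0386% to 0.315% in the 9-week luminal libraries. It was 0.267% to 1.75% in basal and 0.0118% to 0.0744% in luminal libraries at 4 weeks, 0.211% to 1.07% and 0.00973% to 0.264% at 6 weeks, and 0.468% to 1.76% and 0.0131% to 0.585% in the E2 experiment.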
